A study of Mus musculus with 6 samples.

Results

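DNA replication genes are the subject here: 42 genes picked by gene symbol for their roles in copying the genome, out of 17971 genes in the deposited table of mouse dorsal root ganglia. The ganglia, clusters of sensory neurons and glia beside the spinal cord, were taken from mouse embryos at stage E13.5 and profiled by RNA-seq. The 3 cKO libraries came from embryos of the genotype Wnt1-cre+/-;Ybx1fl/fl. The 3 Ctrl libraries came from littermates of the genotype Ybx1fl/fl, which carry the same floxed alleles and no Cre. All embryos were labelled male, and the labels call the samples biological replicates. The comparison asked which mRNAs depend on Ybx1, whose product is a Y-box protein with a cold-shock domain that binds RNA and DNA.

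Some features of the model bear on every value. Cre is driven by Wnt1 regulatory sequence and acts in the neural crest lineage, so blood, vessel and immune cells of the ganglia are not its targets. Every cKO embryo carried Cre and no Ctrl embryo did, so an effect of Cre or its transgene cannot be told apart from the loss of Ybx1. The replicate numbers 1 to 3 were taken as littermate pairs, each with 1 cKO and 1 Ctrl library, and a blocked model that compares cKO with Ctrl within pairs is given where it changes a call.

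Each round of replication starts in G1, when the origin recognition complex, Cdc6 and Cdt1 load the ring-shaped Mcm2 to Mcm7 helicase onto DNA. At the onset of S phase, cyclin E kinase activity, Cdc45, Mcm10 and the GINS complex turn the loaded ring into an active helicase. DNA polymerase alpha and primase lay down primers, polymerases delta and epsilon extend them, and the Pcna clamp, placed by replication factor C, holds the polymerases on DNA. At E13.5 the ganglia hold neurons that have left the cell cycle beside dividing progenitors and glial precursors, and replication genes are transcribed mainly in the dividing cells. These are bulk samples, in which fewer dividing cells and less RNA per dividing cell cannot be told apart.

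The 4 promoters printed here belong to MCM helicase genes. Only 2 of the 42 genes, Mcm7 and Mcm3 of this group, had 95% intervals above 0 in the model without pairs. With the pairs as a block, 8 of the 42 did. Of all genes tested, 4.62% were higher with an unadjusted edgeR p under 0.05 without pairs, and 8.41% with the block. The promoters were chosen for carrying both kinds of letters marked in them. These letters therefore do not set Mcm7 and Mcm3 apart from Mcm6 and Mcm5. Each runs from 250 bases before to 50 bases after a transcription start in RefSeq (GRCm38.p6), 5′ to 3′ on the strand of the gene. Capitals mark the letters CCAAT and the E2F-type letters TTTCCCGC, TTTCGCGC, TTTGCCGC and TTTGGCGC, on either strand, and letters that overlap are joined in a single run of capitals. E2F factors are regulators of S-phase genes, and CCAAT is the core of the Y-box that gave Y-box proteins such as Ybx1 their name.
Mcm7, chr5:138171834-138172133, minus strand: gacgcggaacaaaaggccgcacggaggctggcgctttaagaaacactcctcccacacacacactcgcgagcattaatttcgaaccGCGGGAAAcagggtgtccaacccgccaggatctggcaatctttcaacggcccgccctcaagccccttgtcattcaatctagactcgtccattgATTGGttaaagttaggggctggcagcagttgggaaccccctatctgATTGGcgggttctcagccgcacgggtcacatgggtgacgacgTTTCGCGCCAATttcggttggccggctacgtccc
Mcm3, chr1:20820263-20820562, minus strand: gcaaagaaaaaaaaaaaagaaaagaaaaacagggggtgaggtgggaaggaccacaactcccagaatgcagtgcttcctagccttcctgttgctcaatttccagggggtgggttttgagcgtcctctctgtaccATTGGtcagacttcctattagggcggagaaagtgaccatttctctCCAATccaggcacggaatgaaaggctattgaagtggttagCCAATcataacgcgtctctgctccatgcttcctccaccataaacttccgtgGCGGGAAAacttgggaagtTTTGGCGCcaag
Mcm6, chr1:128359656-128359955, minus strand: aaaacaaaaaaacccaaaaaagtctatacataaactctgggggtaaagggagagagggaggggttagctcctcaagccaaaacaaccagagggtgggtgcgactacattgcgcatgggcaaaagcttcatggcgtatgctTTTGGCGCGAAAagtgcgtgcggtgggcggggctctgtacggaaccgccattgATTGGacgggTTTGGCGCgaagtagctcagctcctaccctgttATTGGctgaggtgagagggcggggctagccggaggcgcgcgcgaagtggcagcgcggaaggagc
Mcm5, chr8:75109259-75109558, plus strand: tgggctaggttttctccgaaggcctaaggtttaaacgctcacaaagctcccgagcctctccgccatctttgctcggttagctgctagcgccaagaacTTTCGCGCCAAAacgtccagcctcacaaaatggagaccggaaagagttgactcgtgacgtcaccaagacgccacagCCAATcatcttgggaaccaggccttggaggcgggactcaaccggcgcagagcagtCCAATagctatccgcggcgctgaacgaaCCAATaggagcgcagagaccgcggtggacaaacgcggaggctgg
The Mcm7 promoter shown held 2 matches to the E2F-type letters and 3 to CCAAT. It is 1 of 2 listed for Mcm7, and the other held no E2F-type letters and 1 CCAAT. The Mcm3 promoter held 2 and 3 matches, that of Mcm6 held 3 and 2, and that of Mcm5 held 2 and 3. The promoter of Mcm2, not printed, held no E2F-type letters and 1 CCAAT, and Mcm4 was not matched in the table. Of the 42 genes, 33 had a promoter in the table. The E2F-type letters stood in 15 of them (45.5%), against 4.49% of the 11303 tested genes with a promoter. CCAAT stood in 21 (63.6%), against 43.0% of those genes, and both kinds of letters in 9 (27.3%), against 2.18%. Such matches describe sequence and not binding.

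All 6 libraries were of similar depth, between 16464264 and 17446385 estimated counts, and 14338 genes had enough counts to be tested. Ybx1 had 137, 122 and 108 normalised CPM (counts scaled by TMM to a common library size) in the cKO libraries, against 927, 809 and 817 in the Ctrl libraries. The groups were far apart, with a log2 fold change of -2.80 (SE 0.10, edgeR quasi-likelihood adjusted p = 8.42e-08). Of 14338 genes, 69 passed the adjusted p threshold of 0.05, 16 higher (0.112%) and 53 lower (0.37%) in cKO. With the pairs as a block, 764 did, 253 higher (1.76%) and 511 lower (3.56%). Markers of glia and progenitors and of sensory neurons were detected in every library, as the tissue label says.

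All 42 replication genes were expressed and all 42 were tested. Their levels per transcript length, in TPM as deposited and averaged over all 6 libraries, had a median of 23.3 TPM, against 19.9 TPM over all genes tested. Pcna, the sliding clamp, was highest at 171 TPM. Orc1, the largest subunit of the origin recognition complex, was lowest at 1.29 TPM, a span of 133-fold. Mcm7 (72.2 TPM), Rfc2 (69.3 TPM), Mcm6 (68.3 TPM) and Rrm1 (52.02 TPM) followed Pcna. Of 41 neighbours in this order, 27 overlapped between their values in the cKO libraries and 33 in the Ctrl libraries, so most neighbours were not separated by their spread. Subunits of the same complex differed in TPM: within the helicase from 72.2 for Mcm7 down to 24.5 for Mcm5, within GINS from 44.5 for Gins4 down to 6.52 for Gins3, and within replication factor C from 69.3 for Rfc2 down to 20.9 for Rfc5. The spread between libraries of a group was small, with a median coefficient of variation of the normalised CPM of 6.72% in cKO and 6.42% in Ctrl.

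**Figure D1:**
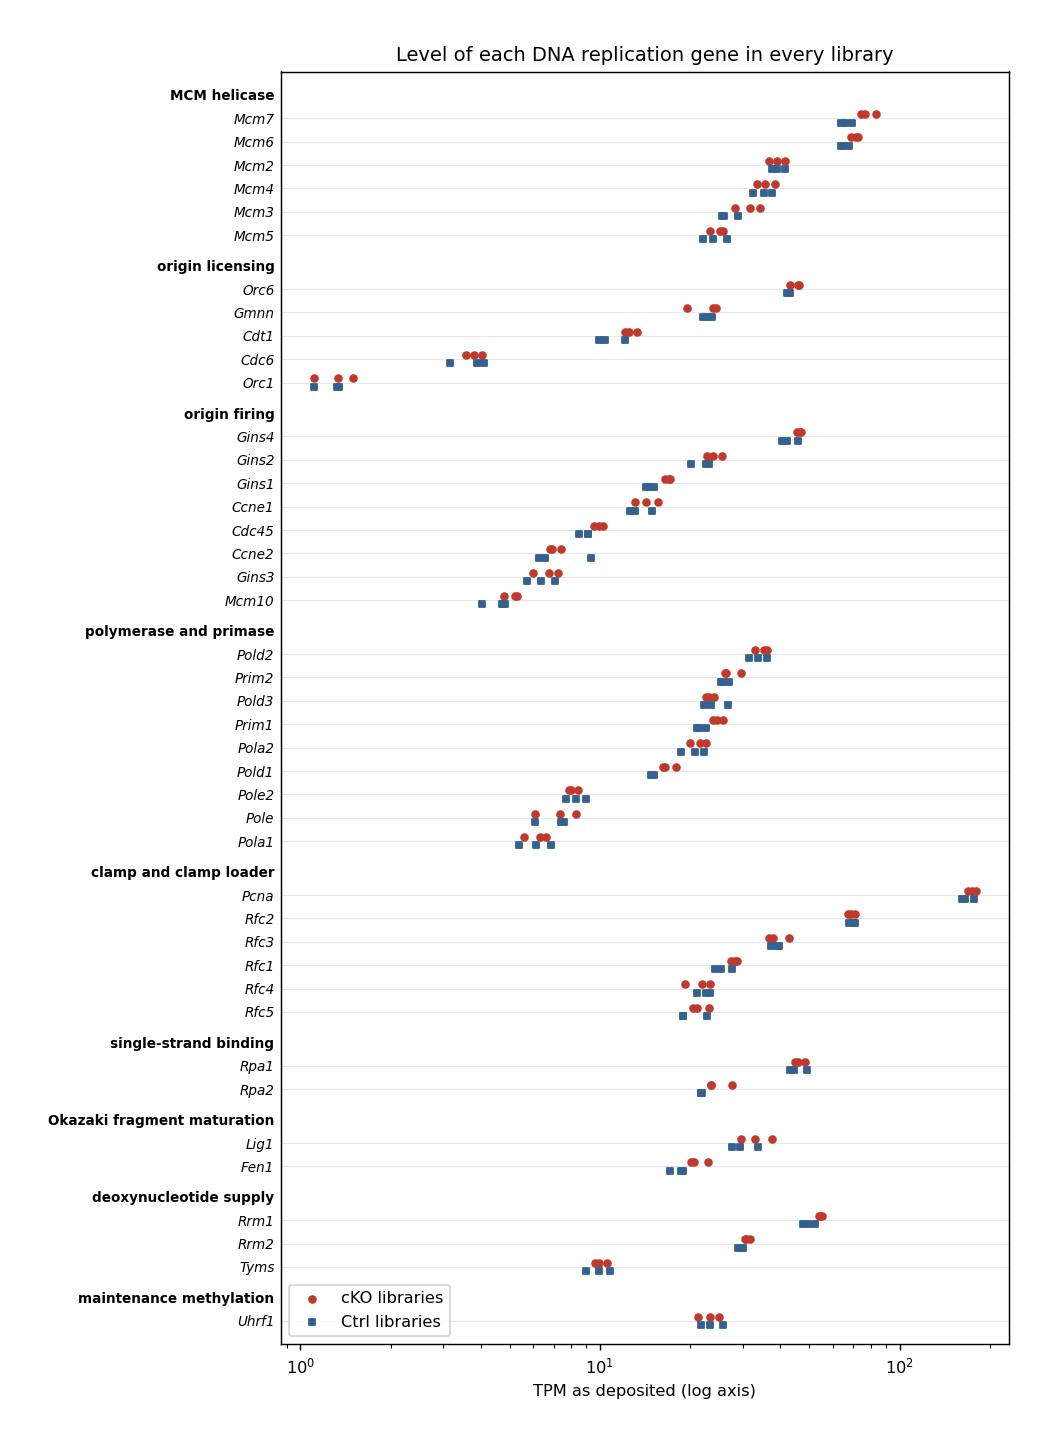
Level of each of the 42 replication genes in TPM on a log axis, by role, with 1 point per library (red circles, cKO; blue squares, Ctrl). Pcna is highest with a mean of 171 TPM and Orc1 lowest with 1.29 TPM, and cKO and Ctrl points lie close together for every gene.

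No replication gene passed the edgeR test between cKO and Ctrl ganglia in the model without pairs (0 of 42, against 0.481% of all genes tested). Only Mcm7 and Mcm3 had an unadjusted p under 0.05 (2 of 42, both higher in cKO, against 10.7% of all genes in either direction and 4.62% higher), and DESeq2 and limma-voom also called 0. The lowest adjusted p was 0.23. With the pairs as a block, Mcm7 alone was called, higher in cKO (1 of 42, against 5.33% of all genes called in either direction and 1.76% called higher). In that model 8 of 42 had an unadjusted p under 0.05, all higher in cKO, against 18.7% of all genes in either direction and 8.41% higher. Besides Mcm7 and Mcm3 these were Pold1 (blocked, unadjusted 95% interval 0.02 to 0.31), Fen1 (0.02 to 0.34) and Rrm1 (0.01 to 0.23). The rest were Lig1 (0.01 to 0.25), Rpa2 (0.01 to 0.36) and Rfc1 (0.002 to 0.24). The log2 fold changes lay between -0.09 for Ccne2 and 0.22 for Mcm7. The 95% interval of every one of the 42 lay within a 1.5-fold difference in either direction, as it did for 84% of all genes tested, and the outermost bounds were -0.39 and 0.48, both of Orc1. For 33 of 42 the interval lay within 1.3-fold, against 66.5% of all genes.

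**Figure D2:**
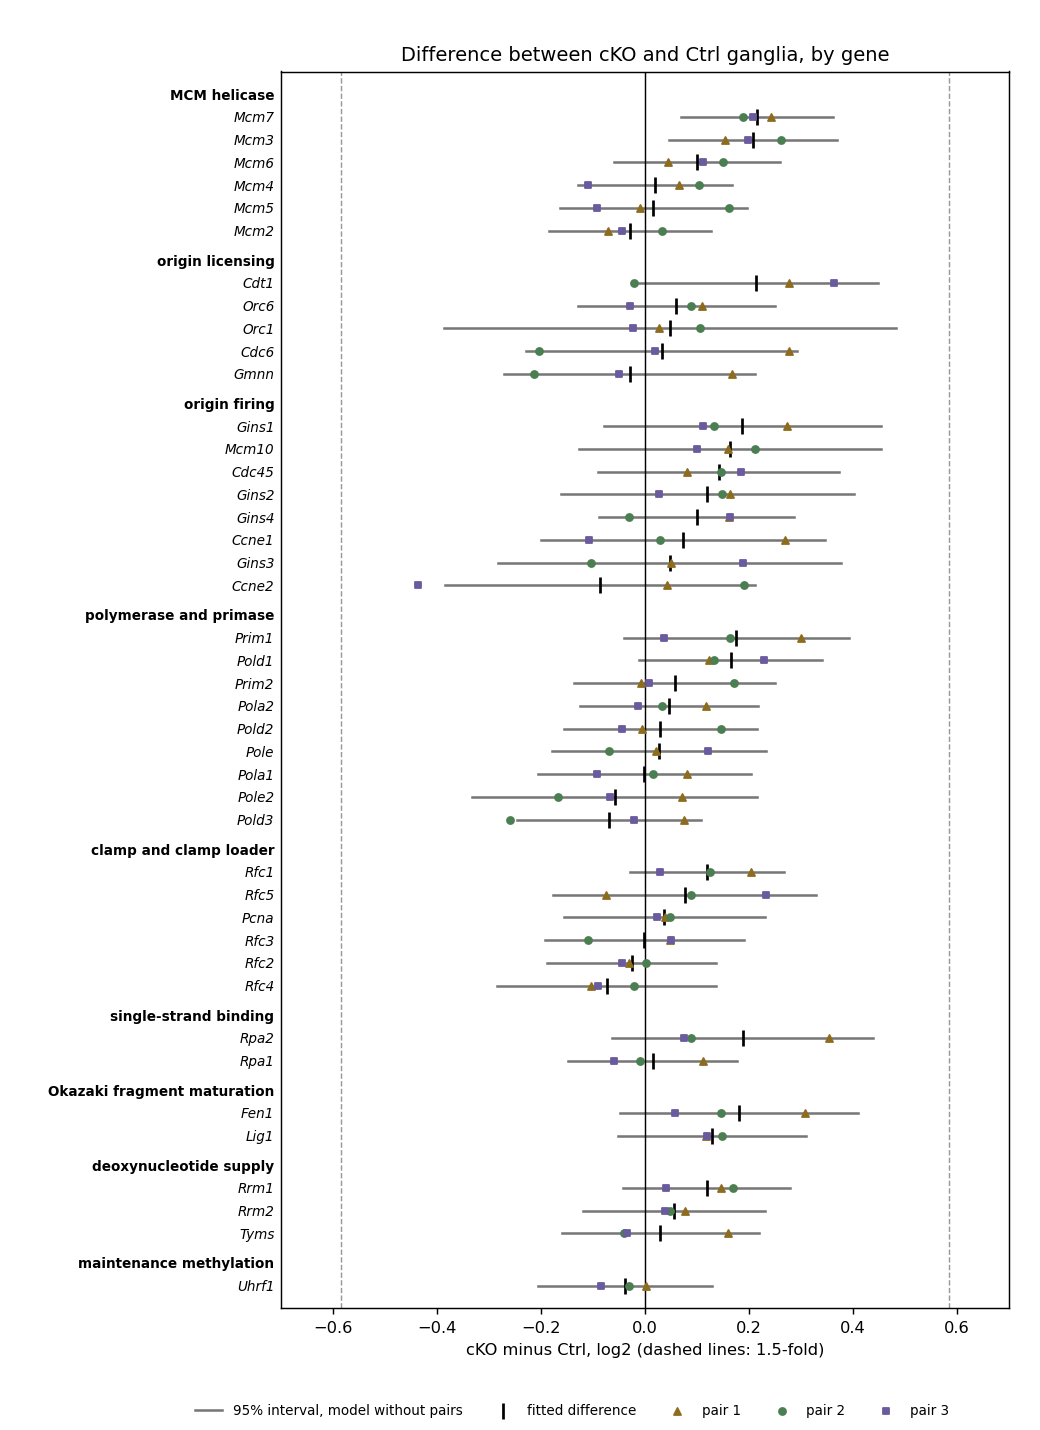
Difference between cKO and Ctrl for each replication gene on the log2 scale: black ticks are the fitted differences, grey lines their 95% intervals in the model without pairs, and coloured symbols the differences within pairs 1, 2 and 3. No interval reaches the dashed lines at 1.5-fold, and only those of Mcm7 and Mcm3 lie wholly above 0.

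The differences leaned to one side. The fitted log2 fold change was above 0 for 32 of 42 genes (76.2%), against 51.4% of all genes tested. The median was 0.05, against 0.00 over all genes. Within pairs, the median difference was 0.10, 0.09 and 0.03 in pairs 1, 2 and 3, with 35, 29 and 24 genes higher in the cKO library. The cKO library was higher in all 3 pairs for 16 genes (38.1%), against 19.6% of all genes, and lower in all 3 pairs for 1 gene, Rfc4, against 20.3%. Normalised CPM did not overlap between groups for 5 genes, all higher in cKO (Mcm7, Mcm3, Gins1, Prim1 and Rfc1), against 7.83% of all genes, and none was lower without overlap, against 8.77%. In deposited TPM, 11 genes did not overlap, again all higher in cKO (Mcm6, Mcm7, Cdt1, Cdc45, Gins1, Prim1, Pold1, Rpa2, Fen1, Rrm1 and Rrm2), against 8.34% of all genes, and none was lower, against 5.77%.

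The size of the lean varied with the libraries left out. Leaving out 1 library also breaks its pair, so differences between pairs can enter the value. The median of the 42 log2 fold changes was 0.02 without cKO replicate 1 (26 genes above 0), 0.03 without Ctrl replicate 2 (28 genes), 0.08 without cKO replicate 2 (34 genes) and 0.10 without Ctrl replicate 1 (31 genes). Without both libraries numbered 1 it was 0.05, with 27 genes above 0. With the block and without the pair numbered 1, 2 or 3, it was 0.04, 0.07 and 0.08, with 27, 32 and 32 genes above 0. Scaled by library totals it was 0.08, when the median of all genes was 0.03.

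Among the 42 genes, Mcm7 and Mcm3 of the MCM helicase had the lowest edgeR p in the model without pairs. Over the 6 helicase genes the median log2 fold change was 0.06, against 0.05 over all 42. Mcm7, a subunit of the ring (gene identifier 17220, chr5:138164583-138172111, minus strand), had 97.4, 89.8 and 97.1 CPM in the cKO libraries, against 82.3, 78.7 and 83.9 in the Ctrl libraries. Every cKO library was above every Ctrl library. The means were 94.8 ± 4.33 CPM in cKO and 81.6 ± 2.70 CPM in Ctrl (SD, n = 3 each), 1.16-fold. The log2 fold change was 0.22 (SE 0.07, 95% interval 0.07 to 0.36, edgeR adjusted p = 0.23). With the pairs as a block it was 0.21 (SE 0.05, 95% interval 0.11 to 0.32, edgeR adjusted p = 0.0224), and the differences within pairs were 0.24, 0.19 and 0.21. The blocked call was lost without the libraries numbered 2 (edgeR adjusted p = 0.199) and kept without those numbered 1 or 3 (0.0215 and 0.0316). Exons of Mcm7 overlap those of Cops6 and Ap4m1 on the opposite strand in the GENCODE annotation. The sources used here do not say whether the libraries keep strand, so reads from these genes may not be told apart. The same holds for 11 other replication genes with an opposite-strand overlap (Orc1, Orc6, Cdc45, Gins2, Ccne2, Pole, Rfc2, Rfc4, Rfc5, Fen1 and Lig1), and Pole2 overlaps a gene on its own strand. Cops6 and Ap4m1 had log2 fold changes of -0.08 and -0.03 (edgeR adjusted p = 0.839 and 0.95).

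Mcm3, a neighbouring subunit of the ring (gene identifier 17215, chr1:20802966-20820312, minus strand), had 46.7, 47.2 and 50.7 CPM in the cKO libraries, against 41.9, 39.3 and 44.1 in the Ctrl libraries. The groups did not overlap. The log2 fold change was 0.21 (95% interval 0.05 to 0.37, edgeR adjusted p = 0.312), and with the block the adjusted p was 0.0542. The other 4 subunits were closer to 0. Mcm6 had a log2 fold change of 0.10, Mcm4 and Mcm5 of 0.02 each and Mcm2 of -0.03, and all 4 overlapped between groups in CPM. Summed over the 6 subunits, the helicase genes had 439.6, 422 and 432 CPM in the cKO libraries, against 417, 382 and 415 in the Ctrl libraries, which did not overlap. In summed TPM they had 265, 284 and 292 in cKO, against 253, 251 and 269 in Ctrl, which did.

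**Figure D3:**
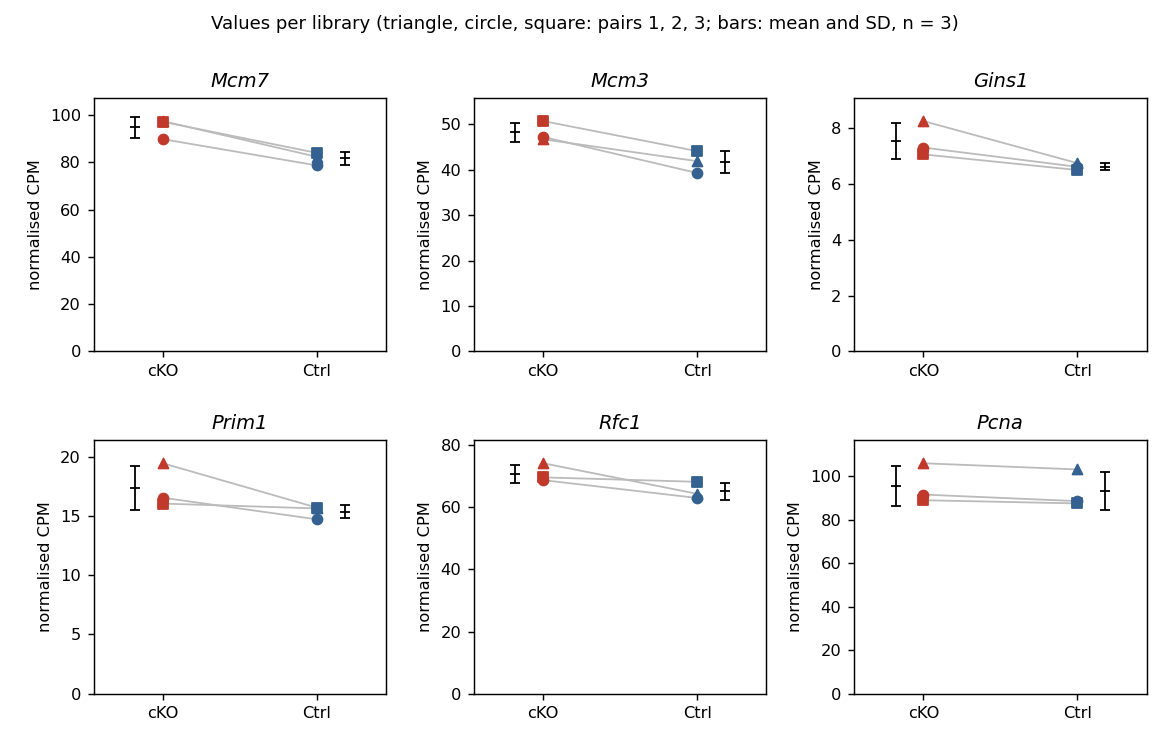
Normalised CPM per library for the 5 replication genes whose groups do not overlap and for Pcna, cKO left of Ctrl, with grey lines joining libraries of a pair and bars for the mean and SD (n = 3). Mcm7 and Mcm3 are higher in cKO by a similar step in all 3 pairs, and the number 1 libraries of both groups are highest for Pcna.

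Among the genes that license origins, none passed either model. Orc6, the smallest subunit of the origin recognition complex and the highest of this role in TPM, had 36.9, 33.3 and 30.6 CPM in the cKO libraries, against 34.1, 31.3 and 31.2 in the Ctrl libraries. The groups overlapped (log2 fold change 0.06, 95% interval -0.13 to 0.25, edgeR adjusted p = 0.872). Cdt1, the loader of the helicase, had the largest difference of the role, at a log2 fold change of 0.21 with a 95% interval of -0.02 to 0.45. It had 14.5, 12.5 and 13.7 CPM in cKO, against 11.9, 12.7 and 10.5 in Ctrl, and its groups overlapped through pair 2. Gmnn, the inhibitor of Cdt1, had a log2 fold change of -0.03, and Cdc6 and Orc1 had 0.03 and 0.05. Orc1 rested on 31 to 38 counts per library and had the widest interval.

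Over the 8 genes of origin firing, the median log2 fold change was 0.11 and 7 were above 0, and none passed either model. Gins1, a subunit of the GINS complex, had 8.25, 7.30 and 7.06 CPM in the cKO libraries, against 6.74, 6.61 and 6.50 in the Ctrl libraries. The groups did not overlap, and the difference did not pass the test (log2 fold change 0.19, 95% interval -0.08 to 0.45, edgeR adjusted p = 0.66, and 0.442 with the block). Gins4, the subunit highest in TPM, had 30.3, 26.4 and 27.2 CPM in cKO, against 27.0, 27.0 and 24.2 in Ctrl, which overlapped (log2 fold change 0.10, edgeR adjusted p = 0.764). The cKO library was higher in all 3 pairs for Gins1, Gins2, Mcm10 and the helicase cofactor Cdc45. The cyclin E genes stood on either side of 0, with log2 fold changes of 0.07 for Ccne1 and -0.09 for Ccne2. Ccne2 had 10.8, 10.8 and 9.97 CPM in cKO, against 10.5, 9.41 and 13.7 in Ctrl, and its lowest pair difference, -0.44 in pair 3, came with the high Ctrl replicate 3. Summed over the role, the genes had 134, 127 and 130 TPM in cKO, against 120, 119 and 121 in Ctrl, which did not overlap, but 107, 91.1 and 93.5 CPM in cKO, against 96.0, 86.7 and 91.5 in Ctrl, which did.

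Over the 9 polymerase and primase genes the median difference was 0.03 on the log2 scale, and none passed either model. Prim1, the catalytic subunit of primase, had 19.4, 16.5 and 16.0 CPM in the cKO libraries, against 15.7, 14.7 and 15.6 in the Ctrl libraries. The groups did not overlap (log2 fold change 0.18, 95% interval -0.04 to 0.39, edgeR adjusted p = 0.591). Prim2, its partner subunit, had a log2 fold change of 0.06 and overlapping groups. Pold1, the catalytic subunit of polymerase delta, had a log2 fold change of 0.17 (95% interval -0.01 to 0.34, edgeR adjusted p = 0.51) and was higher in cKO in all 3 pairs. Its accessory subunits had 0.03 (Pold2) and -0.07 (Pold3). Pold2, the highest of the role in TPM, had 26.5, 25.3 and 25.8 CPM in cKO, against 26.6, 22.8 and 26.6 in Ctrl, and its groups overlapped (edgeR adjusted p = 0.945). The polymerase alpha subunits Pola1 and Pola2 had log2 fold changes of 0.00 and 0.05, and the polymerase epsilon subunits Pole and Pole2 had 0.03 and -0.06.

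Pcna had 105.8, 91.5 and 88.9 CPM in the cKO libraries, against 103.0, 88.4 and 87.4 in the Ctrl libraries. The groups overlapped, and the number 1 library was the highest of its group in both genotypes. The log2 fold change was 0.04 (95% interval -0.16 to 0.23, edgeR adjusted p = 0.931), and the differences within pairs were 0.04, 0.05 and 0.02. Rfc1, the large subunit of the clamp loader, had 74.2, 68.7 and 69.6 CPM in cKO, against 64.3, 63.0 and 68.2 in Ctrl. Its groups did not overlap, with a log2 fold change of 0.12 (95% interval -0.03 to 0.27, edgeR adjusted p = 0.591). The small subunits Rfc2 to Rfc5 had log2 fold changes between -0.07 (Rfc4) and 0.08 (Rfc5), all with overlapping groups.

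The single-strand binding protein gene Rpa1 had 76.5, 67.0 and 72.4 CPM in the cKO libraries, against 70.7, 67.5 and 75.4 in the Ctrl libraries, which overlapped (log2 fold change 0.02, edgeR adjusted p = 0.968). Rpa2, its partner, had 25.1, 19.0 and 19.0 CPM in cKO, against 19.5, 17.8 and 18.0 in Ctrl, and cKO replicate 1 stood above the rest (log2 fold change 0.19, 95% interval -0.06 to 0.44). In the maturation of Okazaki fragments, Lig1, the ligase that seals nicks, had 50.5, 50.4 and 57.3 CPM in cKO, against 46.6, 45.4 and 52.6 in Ctrl. The Lig1 groups overlapped, while each cKO library was above its paired Ctrl library (log2 fold change 0.13, 95% interval -0.05 to 0.31, edgeR adjusted p = 0.649). Fen1, the flap endonuclease, had 27.5, 21.7 and 22.1 CPM in cKO, against 22.1, 19.5 and 21.2 in Ctrl, with cKO replicate 1 highest (log2 fold change 0.18, edgeR adjusted p = 0.607).

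Of the genes that supply deoxynucleotides, Rrm1, the large subunit of ribonucleotide reductase, had 121.3, 109.5 and 110.6 CPM in the cKO libraries, against 109.6, 97.2 and 107.5 in the Ctrl libraries. The groups overlapped by a narrow margin, at cKO replicate 2 and Ctrl replicate 1 (log2 fold change 0.12, 95% interval -0.04 to 0.28, edgeR adjusted p = 0.637). The small subunit gene Rrm2 had a log2 fold change of 0.06 and thymidylate synthase, Tyms, of 0.03. Uhrf1, which binds half-methylated DNA behind the fork and brings in the methyltransferase Dnmt1, had 41.8, 40.6 and 44.1 CPM in cKO, against 41.7, 41.4 and 46.8 in Ctrl. Its groups overlapped, with a log2 fold change of -0.04 (95% interval -0.21 to 0.13, edgeR adjusted p = 0.914).

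Across libraries, the median deviation of the 42 genes from their own means over the 6 libraries, on the log2 scale, was 0.11, -0.02 and 0.01 in the cKO libraries and -0.01, -0.08 and -0.02 in the Ctrl libraries. Ranked by this measure, cKO replicate 1 was highest and Ctrl replicate 2 lowest. Both number 1 libraries were above the other 4 for 10 genes (23.8%, among them Pcna, Mcm6, Rrm2 and Orc6), against 16.5% of all genes tested. Summed over all 42 genes, the cKO libraries had 1244, 1256 and 1290 TPM, against 1183, 1179 and 1221 in the Ctrl libraries, which did not overlap. In normalised CPM the sums were 1522, 1398 and 1443 in cKO, against 1420, 1325 and 1408 in Ctrl, which did overlap.

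**Figure D4:**
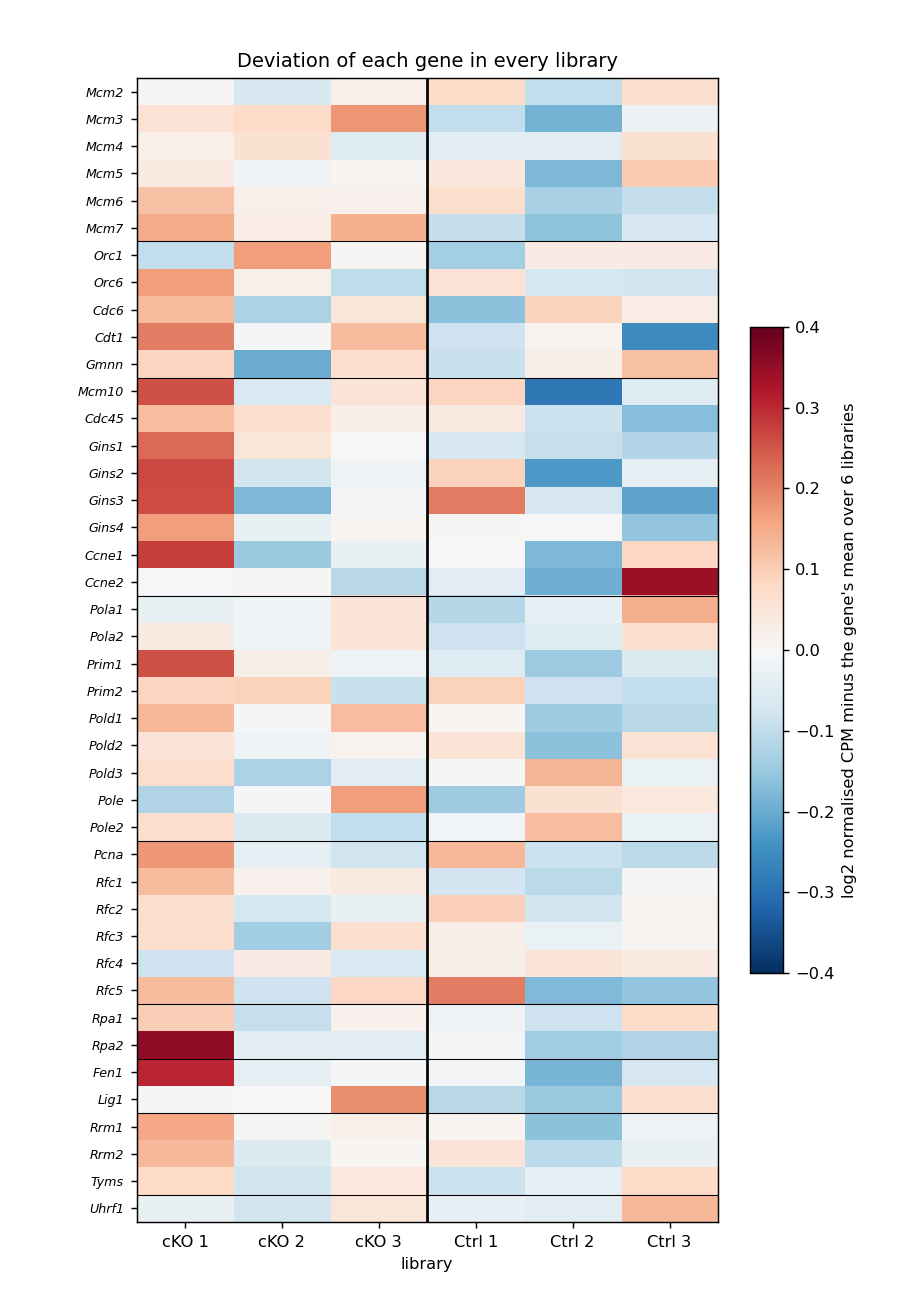
Deviation of each replication gene from its own mean over the 6 libraries, in log2 normalised CPM (red above, blue below), with cKO libraries left of the thick line and Ctrl libraries right of it. The cKO 1 column is mostly red, with a median of 0.11, and the Ctrl 2 column mostly blue, with a median of -0.08.

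Other lists of cell cycle and DNA synthesis genes, also chosen by symbol, had median log2 fold changes between 0.04 and 0.08. Over the 28 other replication genes the median log2 fold change was 0.04, with 20 above 0 and none called in either model. Of these, Pole3, a small subunit of polymerase epsilon, had 0.10, and Rpa3, the smallest single-strand binding subunit, 0.13. Orc2 and Topbp1 had 0.20 and 0.17, with 95% intervals above 0 in the model without pairs (edgeR adjusted p = 0.261 and 0.355). They were 2 of 28, against 4.62% of all genes higher with an unadjusted edgeR p under 0.05. Normalised CPM did not overlap between groups for 4 of the 28, higher in cKO, and for 1, lower, against 7.83% and 8.77% of all genes. The 22 mitosis genes had a median of 0.08, with 16 above 0 and none called in either model. Of them, 12 were higher in cKO in all 3 pairs (54.5%, against 19.6% of all genes) and 0 lower in all 3 (against 20.3%). Birc5, the survivin subunit of the chromosomal passenger complex, had 0.17, and Ube2c, a ubiquitin-conjugating enzyme of mitotic exit, 0.02. The 22 G1/S regulators had a median of 0.04, with 17 above 0 and none called, Cdk4 at -0.03 and the inhibitor Cdkn1c at -0.10. Without the block, 2 of the 22 had an unadjusted edgeR p under 0.05, both higher in cKO: E2f2 at 0.39 and Cdk2 at 0.21. Of all genes, 10.7% had such a p in either direction and 4.62% were higher with it. The 9 genes of S-phase chromatin had a median of 0.07, with 6 above 0 and none called, the histone chaperone Nasp at 0.02 and Dnmt1 at 0.09.

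The 14 other genes of nucleotide synthesis had a median of 0.04 and were the only one of these lists with calls, 1 in each direction and only with the pairs as a block. In that model 1.76% of all genes tested were called higher and 3.56% lower. Both called genes of the list encode enzymes of mitochondrial one-carbon metabolism. Shmt2 had 52.7, 50.3 and 51.8 CPM in the cKO libraries, against 47.3, 41.98 and 40.0 in the Ctrl libraries. It was higher without overlap (log2 fold change 0.26, edgeR adjusted p = 0.205, and 0.0215 with the block). Mthfd2 had 28.9, 28.1 and 27.3 CPM in cKO, against 35.5, 32.8 and 35.2 in Ctrl. It was lower without overlap (log2 fold change -0.30, edgeR adjusted p = 0.126, and 0.015 with the block).

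**Figure D5:**
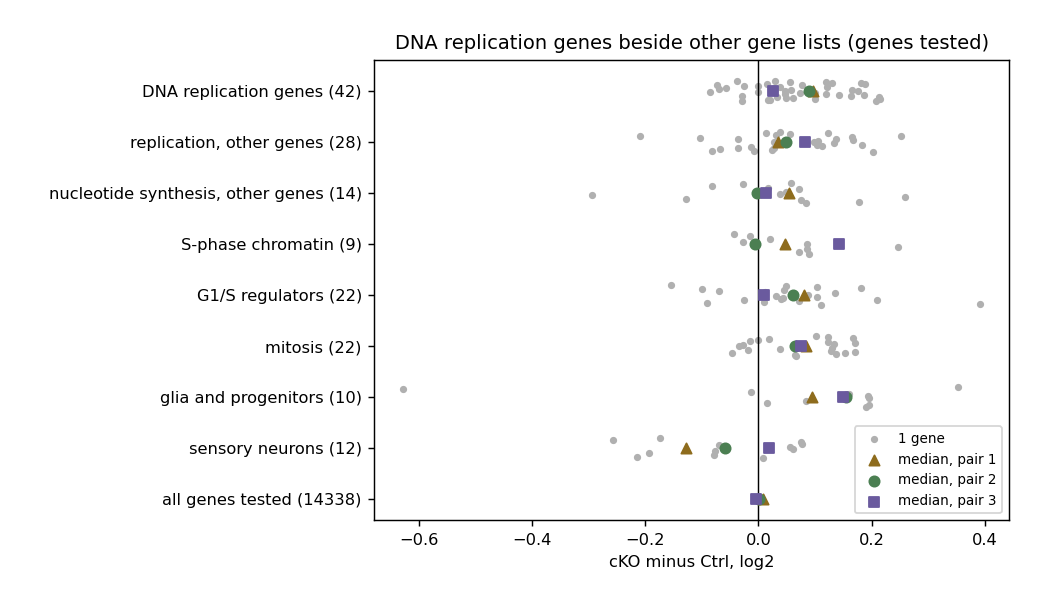
Difference between cKO and Ctrl, log2, for the replication genes and other gene lists (numbers of genes tested in parentheses): grey points are single genes in the model without pairs, and triangles, circles and squares are the medians of the differences within pairs 1, 2 and 3. All 3 medians of the replication genes lie above 0, between 0.03 and 0.10. So do those of the other replication genes, the G1/S regulators, the mitosis genes and the markers of glia and progenitors. The medians of all genes tested lie at 0.01, 0.00 and 0.00.

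Markers of the cell types of the ganglia and of neighbouring tissue were read in the same libraries. Of 10 markers of glia and progenitors, 8 had log2 fold changes above 0, with a median of 0.18. Cdh19 and Sox10 were among 4 called higher with the block, in which 1.76% of all genes tested were called higher and 3.56% lower. Normalised CPM did not overlap between groups for 3 of the 10, higher in cKO, and for 1, lower, against 7.83% and 8.77% of all genes. The summed level of the 10 markers was 2187 to 2353 CPM in cKO, against 2082 to 2242 CPM in Ctrl. Of 12 sensory neuron markers, 7 were below 0, and 3 were called lower with the block (Stmn2, Isl1 and Ntrk2). The median was -0.07, with pair medians of -0.13, -0.06 and 0.02. In all 3 pairs, 6 of the 12 were lower in cKO, against 20.3% of all genes, and 1 higher, against 19.6%. Normalised CPM did not overlap for 3 of the 12, all lower in cKO, against 8.77% of all genes. The summed level of the 12 markers overlapped, at 14122 to 14858 CPM in cKO, against 14413 to 14907 CPM in Ctrl. Macrophage markers were all 10 above 0, with a median of 0.43 and pair medians of 0.61, 0.30 and 0.115. C1qb was called higher with the block. Normalised CPM did not overlap for 3 of the 10 macrophage markers, all higher in cKO, against 7.83% of all genes. Their summed level was 104 to 160 CPM in cKO, highest in replicate 1, against 89.3 to 99.0 CPM in Ctrl, which did not overlap. Erythroid markers, none called, summed to 10702 CPM in cKO replicate 1, 2605 and 4239 CPM in the other cKO libraries, and 3120 to 4625 CPM in Ctrl. The erythroid median was 0.48, with pair medians of 1.21, -0.20 and -0.18. Endothelium (6 markers) and mesenchyme (8 markers) had medians of -0.02 and 0.02, with none called. Of 8 skeletal muscle and 8 spinal cord markers, 5 and 2 had enough counts to be tested, and Olig2, Lhx1, Pax2, Lbx1, Dbx1 and Tnnc2 were at 0 in at least 1 library. Pax6, a spinal cord marker, was called higher in both models on 13, 18 and 15 counts in cKO, against 3, 3 and 4 in Ctrl. It had enough counts to be tested only through the cKO libraries, where it was high, so the call gives no separate evidence of a direction. The part of any of these in the values of the replication genes was not tested.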

How the data were processed

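RNA-seq libraries of mouse dorsal root ganglia, 3 cKO and 3 Ctrl, were used. Trizol RNA and an mRNA library kit are named in the labels' protocols. The submitters' processing notes name RSEM 1.3.1, HISAT2 2.2.1 and Bowtie2 2.4.5 and the build GRCm38 (mm10), with no role or order. Estimated counts for each gene were deposited by the authors, of which 88.4% to 88.6% per library were whole numbers. TPM values, likewise deposited by the authors, gave the levels between genes. The FPKM values the authors deposited were only compared between libraries: they summed to 614728 in cKO replicate 1 and 590156 in Ctrl replicate 1, and to 548068 to 551964 in the other 4.

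Counts were rounded to whole numbers and filtered with filterByExpr, which left 14338 genes and removed 3633. Genes were tested with the robust quasi-likelihood model of edgeR 4.0.16 (R 4.3.3) after TMM scaling, two-sided, with Benjamini-Hochberg adjustment over all genes tested. The common spread between libraries, as a biological coefficient of variation, came to 7.79% without the block and 4.94% with it. The 95% intervals come from the fitted SE and are not adjusted. Pair differences are of log2(CPM + 0.5). The scripts were tested on simulated counts. Across genes, the departures of the cKO and Ctrl libraries of a number from their own group means correlated at 0.328, 0.205 and 0.184. Libraries of different numbers correlated at -0.264 to 0.118. Departures cancel out within each group, so positive values for shared numbers force lower ones for different numbers. The lower values are therefore not separate evidence of pairing. The titles give both groups the numbers 1 to 3, and the controls are described as littermates. On these grounds the numbers were treated as pairs, and the unblocked model was kept as the main one. Over the 42 genes alone, a shared number gave 0.543, 0.087 and 0.288. There cKO replicate 2 correlated more with Ctrl replicate 3 (0.214) than with Ctrl replicate 2.

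The 42 genes and the other lists were chosen with earlier results of these data known. Values in every library were given for genes called in either model, for genes whose groups do not overlap and for the gene highest in TPM of each role. Of the other lists, up to 4 called genes or else the 2 highest in TPM were named, and of the marker lists only called genes, some of which are not reported here. Cdt1, Ccne2, Rpa2 and Fen1 were given per library in addition, chosen after their values were seen. Of the other lists, Orc2, Topbp1, E2f2 and Cdk2 were also named after their values were seen. Positions and promoters are from RefSeq (GRCm38.p6), overlaps from GENCODE M21, and motif letters were searched on both strands. Alternatives were other scalings, filters and tests (DESeq2 1.42.0, limma-voom of limma 3.58.1), the replicate block and leaving out libraries. Plots were made in Python 3.11.15 with matplotlib 3.10.9.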

Additional observations from a re-analysis of the deposited data

How the results depend on the processing

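Of all genes tested, 69 were called. Other settings without the block gave 44 with library totals, 184 with DESeq2, 128 with no filter on low counts and 731 without both libraries numbered 1. The replicate block gave 764, and the block with size factors, library totals or limma-voom 731, 799 and 638. With library totals the block split the calls into 396 higher and 403 lower, against 253 and 511 with TMM. The block without the libraries numbered 1, 2 or 3 gave 1252, 260 and 836. Leaving out 1 library gave 18 (without Ctrl replicate 3) to 104 (without cKO replicate 1). Of the replication genes, none was called without the block, leaving out libraries included (0 to 0). The replicate block called 1 (Mcm7), also with size factors, limma-voom or without the libraries numbered 3. It called 2 (Mcm3 and Mcm7) with library totals or without the libraries numbered 1, and 0 without those numbered 2. The median log2 fold change of the 42 genes was 0.0153 to 0.1008 with 1 library left out. Mcm7 kept its direction in all 20 alternatives (0.19 to 0.25, adjusted p 0.0107 to 0.655) and Mcm3 likewise (0.16 to 0.25, 0.0261 to 0.76). Signs of log2 fold changes near 0, none of them called, turned in some settings. Without both libraries numbered 1, Rpa1 had -0.0346 with the block and -0.035 without it. With the block and without the libraries numbered 2, Pold2 had -0.0262. With 1 library left out, the values were -0.0124 to 0.121 for Orc6, -0.0428 to 0.0661 for Pold2, -0.044 to 0.1181 for Pcna, -0.0306 to 0.0629 for Rpa1 and -0.0745 to 0.0203 for Uhrf1. The cause was not tested. At 3 libraries a group, the median distance from a fitted value to the bounds of its unadjusted 95% interval was 0.19 on the log2 scale, and 0.15 with the block. Neither is the limit of detection after adjustment over all genes, since Mcm7, Cdt1 and Mcm3 lay above 0.19 and missed the threshold without the block.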

Other observations

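Mcm7 holds the genes of 3 microRNAs, Mir25, Mir93 and Mir106b, on its own strand (chr5:138165321-138165404, chr5:138165523-138165610 and chr5:138165737-138165818, GRCm38). No counts of mature microRNAs were analysed here. Of the replication genes, 5 start within 1000 bases of a gene on the opposite strand that runs the other way: Mcm4 and Prkdc at 466 bases, Orc1 and Prpf38a at 87, Gins1 and Abhd12 at 659, Pole and Pxmp2 at 120, and Rpa1 and Smyd4 at 109. None of these neighbours was called by edgeR in either model.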
